A study of Homo sapiens with 18 samples.

Results

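Complement is a set of plasma and membrane proteins that tag and lyse targets, and 8 of its genes were followed here: the components C3, C1R, C1S and CFB, and the regulators SERPING1, CD46, CD55 and CD59. They were taken by symbol from the deposited count table, where all 8 of 8 were found among 28278 symbols and all 8 were among the 15353 genes tested. Membership goes by symbol and uses no measured value.

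The liver makes most circulating complement, and stromal cells make some of it locally. In the classical pathway the proteases C1r and C1s are held in check by C1 inhibitor, the product of SERPING1. C3 is the protein on which all activation routes converge, factor B (CFB) pairs with its fragment C3b to amplify the cascade, and the membrane proteins CD46, CD55 and CD59 shield the cell that bears them. Thrombin, the clotting protease, can cleave C3 and C5 in purified systems and signals to stellate cells through protease-activated receptors.

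The cells were LX-2, an immortalised line derived from human hepatic stellate cells, the fibre-forming cells of the liver, so every library comes from a single line. All cultures were first held for 1 h without serum. The 6 groups of 3 libraries were thrombin 4 h and control 4 h, thrombin 24 h and control 24 h, and thrombin 48 h and control 48 h, with thrombin at 1 U/mL and the controls kept in serum-free medium alone. RNA was enriched for poly(A) transcripts and sequenced in bulk. Libraries carry the numbers 12, 13 and 14 in their titles, and nothing says whether these were separate cultures; p-values therefore measure only library-to-library spread, possibly technical.

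Library totals ran from 14431044 to 23270601 counts. Between thrombin 4 h and control 24 h, as labelled, only 11 of 15353 genes differed (0.0716%; edgeR quasi-likelihood test, Benjamini-Hochberg adjusted p under 0.05, the rule behind "called", "rose" and "fell" throughout), so groups are named as labelled and every direction rests on those labels. Stellate cell and myofibroblast markers summed to 6620 to 8245 CPM (counts relative to TMM-scaled library sizes) in every library, with 9 of 12 tested. Most of it was VIM (3129 to 4079 CPM), COL1A1 (1743 to 2804 CPM) and SPARC (621 to 1231 CPM). COL3A1, TIMP1 and PDGFRB had 158 to 428, 232 to 322 and 48.1 to 95.5 CPM. ACTA2, COL1A2 and DES had 7.59 to 19.1, 12.4 to 25.1 and 1.42 to 6.60 CPM. LRAT, LUM and DCN, which mark resting or matrix-rich stellate cells, had at most 6, 10 and 5 counts. Hepatocyte markers (1 of 8 tested) summed to at most 1.49 CPM, with TTR at 0 counts and ALB at 2 counts or fewer. Endothelial markers (6 of 7) summed to between 16.3 and 30.9 CPM. VWF had 8.96 to 23.7 CPM and PECAM1 2.08 to 6.47 CPM, with CLEC4G at 0. Macrophage markers (4 of 7) summed to between 68.3 and 103.4 CPM, most of it CD68. CD14, CSF1R and PTPRC had 3.79 to 9.72, 1.31 to 4.41 and 1.07 to 2.99 CPM. CD163 and MARCO had 2 counts or fewer and LYZ at most 12. Cholangiocyte markers (3 of 5) summed to between 134.0 and 278.1 CPM, most of it SOX9. KRT7 had 4.29 to 9.02 CPM and EPCAM 3 counts or fewer. In bulk RNA, fewer cells expressing a gene and less RNA per cell cannot be told apart.

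All 8 genes were transcribed in every library, and they spanned a wide range of levels. Per kilobase of longest coding sequence, the mean over the 18 libraries was 1293 CPM for CD59, the blocker of the membrane attack complex. It was 115.7 for CD46, the cofactor for cleavage of C3b and C4b, and 41.6 for C1R. CFB and CD55 had 9.59 and 9.34 CPM per kilobase, and their ranges over libraries overlapped (7.91 to 12.6 and 6.73 to 15.4). C1S (5.31, from 3.70 to 8.02) and SERPING1 (4.36, from 2.25 to 6.19) also overlapped. With the length of all exons in place of the coding length, SERPING1 (1.97) stood above C1S (1.70). By that length CD59 had 47.9, CD46 15.9, C1R 15.2, CFB 4.40 and CD55 2.61 CPM per kilobase. The gaps between these genes therefore depend on the length used. C3 was lowest by either length, at 0.490 CPM per coding kilobase and 0.294 per kilobase of all exons. It had 16 to 95 counts a library, so its values carry the largest counting error of the 8. These cells held far more transcript of the membrane regulators CD59 and CD46 than of C3, per coding length, in each of the 18 libraries.

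The promoter sequences are shown because CD55 and CD59 both fell at 4 h while CFB, a textbook inflammatory target, did not pass the test. RefSeq (GRCh38.p14) promoter entries were matched for 5 of the 8 genes: CD55, CD46, CFB, CD59 and C1R. Printed are the 250 bases before the CD55 start (chr1:207321428-207321677, plus strand), the 250 before the CFB start (chr6:31945845-31946094, plus strand) and 189 bases before an alternative start inside CD59 (chr11:33722728-33722916, minus strand), the last cut to the stretch outside exons of GENCODE v29. Starts are those of RefSeq; GENCODE v29 also annotates a longer first exon of CD55 and of CFB, and each covers the whole of the stretch printed. Capitals mark matches on either strand to the motifs named after them.
CD55: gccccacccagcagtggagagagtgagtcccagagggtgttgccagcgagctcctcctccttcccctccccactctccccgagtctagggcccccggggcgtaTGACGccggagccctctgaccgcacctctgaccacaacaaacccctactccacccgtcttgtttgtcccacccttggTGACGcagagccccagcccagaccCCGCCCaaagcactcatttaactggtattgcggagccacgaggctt
CFB: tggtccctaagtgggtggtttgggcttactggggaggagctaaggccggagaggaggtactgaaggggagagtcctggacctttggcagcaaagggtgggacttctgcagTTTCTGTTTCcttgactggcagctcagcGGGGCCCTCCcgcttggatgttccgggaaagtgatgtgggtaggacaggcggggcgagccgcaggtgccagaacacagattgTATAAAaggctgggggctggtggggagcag
CD59: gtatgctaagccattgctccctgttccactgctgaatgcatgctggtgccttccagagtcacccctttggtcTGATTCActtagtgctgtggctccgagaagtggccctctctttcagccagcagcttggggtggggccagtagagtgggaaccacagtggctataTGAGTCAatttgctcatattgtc

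The CD55 window held TGACG, the core of cyclic AMP response elements, at 147 to 143 and at 70 to 66 bases before the start, and a GC box (GGGCGG, on the opposite strand) at 46 to 41. The CFB window held the NF-kappa-B consensus at 112 to 103, an interferon-type element (GAAA repeated, 2 bases apart, opposite strand) at 140 to 131 and TATAAA at 30 to 25. The CD59 window held the AP-1 motif TGANTCA at 117 to 111 and 23 to 17 bases before that start. It was picked after its matches were seen: the other 3 CD59 entries, the gene's own start among them, held no TGANTCA. Of 34788 distinct human promoter windows of 250 bases, searched on both strands, 21.2% held TGACG, 42.6% GGGCGG, 9.95% the NF-kappa-B consensus, 3.02% the interferon-type element, 10.8% TATAAA and 6.59% TGANTCA. The CArG box (1.17%) and GGAATG (11.9%) were also searched and had no match in these 3 stretches. A match describes the letters only. No sequence is printed for C3, C1S and SERPING1.

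At 4 h, C3 was higher and CD55 and CD59 were lower in the libraries labelled thrombin than in the control libraries. That made 3 of 8 genes called, 1 higher and 2 lower, against 11.8% of all tested genes called. C1R, C1S, CFB, CD46 and SERPING1 did not pass the test. The median log2 fold change was -0.0033 over the 8 genes and -0.00083 over all tested genes, and 4 of the 8 fold changes were positive. The called genes were C3, the hub of the cascade, and 2 of the 3 membrane regulators.

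At 24 h only C3 was called, and it was lower with thrombin: 1 of 8 genes, with 17.6% of all tested genes called. The count is no higher than that background. The median over the 8 was -0.15 on the log2 scale, and 0.0017 over all tested genes. At 48 h none of the 8 was called, with 0% of all tested genes called by edgeR; at an unadjusted p under 0.05 there were 2 of 8 (C3 and CFB) and 1110 of 15353 genes, and DESeq2 called 14 genes overall and none of the 8. The median log2 fold change at 48 h was 0.12 over the 8 and 0.0089 over all tested genes.

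**Figure D1:**
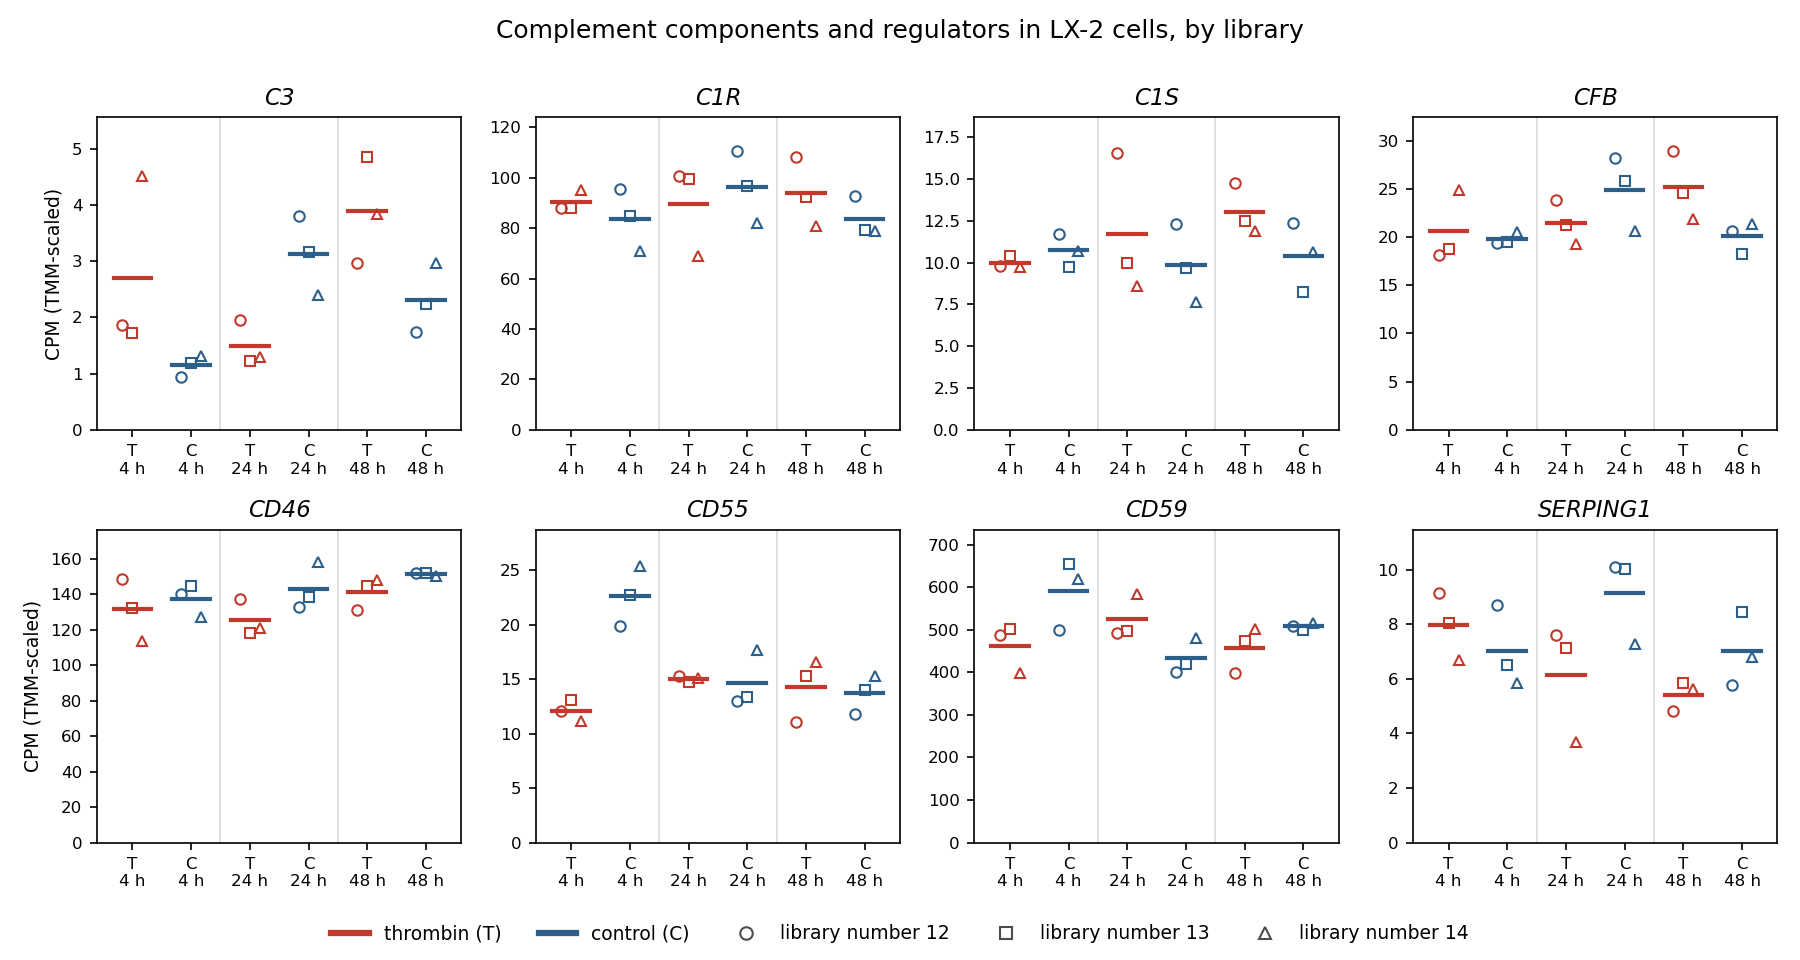
TMM-scaled CPM (y axes, from 0, a scale per gene) of the 8 complement genes in each library, with thrombin (T, red) left of control (C, blue) at 4, 24 and 48 h; circles, squares and triangles are library numbers 12, 13 and 14 and the bar is the mean of 3. C3 stands higher in T at 4 h and lower in T at 24 h, and CD55 is highest in the control 4 h libraries, from 19.9 to 25.4 CPM.

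C3 (chr19:6677704-6720650, minus strand, GRCh38.p14) encodes the most abundant complement protein of plasma, the source of the opsonin C3b and the anaphylatoxin C3a. At 4 h it had 1.86, 1.72 and 4.52 CPM in the thrombin libraries 12, 13 and 14, against 0.948, 1.19 and 1.32 CPM in the control libraries. The groups did not overlap, but thrombin library 14 stood well above the other 2. The log2 fold change was 1.21 ± 0.34 (SE; a 2.32-fold rise; edgeR adjusted p = 0.0219). Without thrombin library 14 it was 0.64 (edgeR adjusted p = 0.280), and the call was also lost without control library 12 (adjusted p = 0.0628) or control library 13 (adjusted p = 0.0701).

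At 24 h the order of the C3 groups was turned round. The thrombin libraries had 1.95, 1.22 and 1.30 CPM and the control libraries 3.81, 3.17 and 2.40 CPM. Every thrombin library was below every control library. C3 fell by 1.07 ± 0.34 on the log2 scale (2.09-fold; edgeR adjusted p = 0.0294), a call lost without control library 12 or 13 or thrombin library 13 or 14 (edgeR adjusted p = 0.134, 0.0759, 0.0936 and 0.115). Whichever library was left out, the fold change stayed between -1.30 and -0.90.

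At 48 h C3 had 2.96, 4.86 and 3.83 CPM in thrombin libraries and 1.73, 2.24 and 2.97 CPM in control libraries. The groups overlapped, with thrombin library 12 just below control library 14. The log2 fold change of 0.76 ± 0.30 did not pass (edgeR adjusted p = 0.610, unadjusted p = 0.0177). The thrombin effect itself differed between times: the 24 h effect minus the 4 h effect was -2.28 ± 0.48 on the log2 scale (edgeR adjusted p = 0.000897), a call kept in all 15 fits with libraries left out. The 48 h effect minus the 24 h effect was 1.82 ± 0.45 (edgeR adjusted p = 0.00741), lost without the libraries numbered 13 (edgeR adjusted p = 0.181). The 48 h effect minus the 4 h effect was -0.45 and did not pass (edgeR adjusted p = 0.780).

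C3 was also compared between times within each treatment. In control cultures C3 was higher at 24 h than at 4 h by 1.43 ± 0.35 on the log2 scale (edgeR adjusted p = 0.00570; 0.0906 without the libraries numbered 13), and the 4 h control libraries enter both this comparison and the 4 h thrombin comparison. In thrombin cultures the 24 h level was not called against 4 h (log2 -0.85 ± 0.34, edgeR adjusted p = 0.0917), though it passed without thrombin 4 h library 12 or 13 (edgeR adjusted p = 0.0340 and 0.0447) and with no low-count filter (edgeR adjusted p = 0.0150). C3 rose at 48 h against 24 h by 1.39 ± 0.33 (edgeR adjusted p = 0.00599), lost without thrombin 48 h library 13 (edgeR adjusted p = 0.0561). In GENCODE v29 C3 overlaps GPR108, a gene at 44.1 to 66.1 CPM. No source used here says how reads in the shared stretch were assigned, and C3 itself had 0.948 to 4.86 CPM.

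CFB (chr6:31946095-31952084, plus strand) encodes factor B, the protease subunit of the alternative pathway convertase. At 48 h it had 28.9, 24.6 and 21.9 CPM in thrombin libraries, against 20.6, 18.3 and 21.4 CPM in control libraries. All thrombin libraries stood above the controls, with thrombin library 14 just above control library 14. The difference of 0.33 ± 0.13 on the log2 scale did not pass (edgeR adjusted p = 0.618, unadjusted p = 0.0198). At 24 h the values were 23.9, 21.2 and 19.2 CPM with thrombin and 28.2, 25.8 and 20.7 CPM in controls, overlapping groups with a log2 difference of -0.22 ± 0.13 (edgeR adjusted p = 0.286). At 4 h the groups averaged 20.6 ± 3.69 and 19.8 ± 0.620 CPM (thrombin and control, SD, n = 3 each). The 48 h effect minus the 24 h effect was 0.54 ± 0.19 (edgeR adjusted p = 0.0525), just short of the threshold, and it passed with DESeq2 (adjusted p = 0.0456), with no low-count filter or the 24 h and 48 h groups alone (edgeR adjusted p = 0.0311 and 0.0414) and in 5 of 15 edgeR fits with libraries left out. CFB overlaps C2 in the annotation, so reads of the 2 neighbours may have been shared.

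C1R and C1S encode the serine proteases that start the classical pathway, and their genes are neighbours on chromosome 12 (chr12:7080219-7092445, minus strand, and chr12:7060718-7071032, plus strand). Neither was called at any time. C1R averaged 90.5 ± 4.2 CPM in thrombin and 83.8 ± 12.2 CPM in control libraries at 4 h. At 24 h the means were 89.7 ± 18.1 and 96.4 ± 14.3 CPM, and at 48 h 93.8 ± 13.8 and 83.6 ± 8.08 CPM (thrombin and control, SD, n = 3 each). The groups overlapped at each time and the log2 fold changes lay between -0.11 and 0.17 (edgeR adjusted p = 0.650 to 0.810). C1S averaged 9.97 ± 0.369 and 10.7 ± 0.988 CPM at 4 h, 11.7 ± 4.25 and 9.88 ± 2.34 CPM at 24 h, and 13.0 ± 1.5 and 10.4 ± 2.09 CPM at 48 h in the same order. Its log2 fold changes of -0.10, 0.24 and 0.32 did not pass (edgeR adjusted p = 0.788, 0.441 and 0.740).

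Both proteases stood highest in library 12 in most groups. C1R was highest in library 12 in 5 of 6 groups and lowest in library 14 in 5 of 6. C1S was highest in library 12 in 5 of 6 and lowest in library 14 in 4 of 6. In thrombin 24 h cultures, for example, C1R had 100.9, 99.4 and 68.8 CPM and C1S 16.5, 9.99 and 8.58 CPM in libraries 12, 13 and 14. Per coding kilobase, C1R transcript stood 8.00 ± 1.27 times that of C1S (SD over 18 libraries, from 5.83 to 10.3). C1S overlaps EMG1 and LPCAT3 in the annotation and C1R overlaps C1RL, so their levels may include shared reads.

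SERPING1 (chr11:57597685-57614848, plus strand) encodes C1 inhibitor, which also restrains kallikrein and factor XIIa at the border with coagulation. At 24 h it had 7.60, 7.14 and 3.67 CPM in thrombin libraries and 10.1, 10.0 and 7.27 CPM in control libraries. Thrombin library 14 was lowest and control libraries 12 and 13 were highest, while thrombin library 12 lay above control library 14, so the groups overlapped. The log2 fold change of -0.59 ± 0.22 missed the threshold (edgeR adjusted p = 0.0611); DESeq2 (adjusted p = 0.0457), no low-count filter (edgeR adjusted p = 0.00556) and leaving out thrombin library 12 or control library 14 (edgeR adjusted p = 0.0274 and 0.0323) put it past. At 4 h and 48 h the log2 fold changes were 0.18 ± 0.21 and -0.37 ± 0.22 (edgeR adjusted p = 0.620 and 0.740). The effect at 24 h minus that at 4 h, -0.77 ± 0.30, also missed it (edgeR adjusted p = 0.0558). It passed with DESeq2 (adjusted p = 0.0450), with no low-count filter (edgeR adjusted p = 0.00793) and in 6 of 15 fits with libraries left out.

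CD55, decay-accelerating factor, dissociates the C3 convertases on the cell surface, and its gene lies on chromosome 1 (chr1:207321678-207360966), near CD46. At 4 h it had 12.1, 13.1 and 11.2 CPM in thrombin libraries against 19.9, 22.7 and 25.4 CPM in control libraries. The groups were far apart, and the lowest control library stood well above every thrombin library. CD55 fell by 0.90 ± 0.14 on the log2 scale (1.87-fold; edgeR adjusted p = 0.000150). The call held without each library in turn, with fold changes from -0.99 to -0.76.

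CD55 was not called at the later times. Thrombin libraries had 15.3, 14.7 and 15.1 CPM at 24 h and control libraries 13.0, 13.3 and 17.7 CPM. At 48 h the values were 11.1, 15.2 and 16.6 CPM with thrombin and 11.8, 14.0 and 15.2 CPM in controls. The groups overlapped at both times, with log2 fold changes of 0.03 ± 0.15 and 0.06 ± 0.14 (edgeR adjusted p = 0.904 and 0.940). The effect at 24 h exceeded that at 4 h by 0.94 ± 0.20 (edgeR adjusted p = 0.00107), and that at 48 h exceeded it by 0.97 ± 0.20 (edgeR adjusted p = 0.0201), the last lost in 9 of 15 fits with libraries left out.

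The group that stood apart for CD55 was control 4 h. Its mean was 22.7 ± 2.74 CPM, and the means of the other 5 groups ran from 12.1 to 15.0 CPM. In control cultures CD55 was lower at 24 h than at 4 h by 0.62 ± 0.14 on the log2 scale (edgeR adjusted p = 0.00343; 0.160 without the libraries numbered 13). Thrombin 24 h was lower than control 4 h by 0.59 ± 0.14 (edgeR adjusted p = 0.0145), lost without control 4 h library 14 or thrombin 24 h library 13 (edgeR adjusted p = 0.0834 and 0.0646). These and the 4 h thrombin comparison share the control 4 h libraries. Thrombin 24 h against thrombin 4 h, which does not use them, gave 0.31 and was not called (edgeR adjusted p = 0.151).

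CD59 (chr11:33703010-33736479, minus strand), or protectin, stops the membrane attack complex from assembling. At 4 h it had 487.5, 501.8 and 399.4 CPM in thrombin libraries and 499.7, 655.1 and 618.1 CPM in control libraries. Control library 12 lay below thrombin library 13, so the groups overlapped, and CD59 fell by 0.35 ± 0.11 on the log2 scale (1.28-fold; edgeR adjusted p = 0.0321). The call was lost without control library 13 or 14 or thrombin library 14 (edgeR adjusted p = 0.178, 0.112 and 0.201).

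At 24 h CD59 stood higher with thrombin, at 492.8, 496.4 and 584.9 CPM, against 400.0, 418.5 and 481.3 CPM in controls. The groups did not overlap, but the log2 fold change of 0.28 ± 0.11 missed the threshold (edgeR adjusted p = 0.0769); it passed with the 24 h libraries fitted alone (edgeR adjusted p = 0.0358), with no low-count filter (edgeR adjusted p = 0.0183) or without control library 14 (edgeR adjusted p = 0.0386). At 48 h the means were 457.8 ± 53.4 CPM with thrombin and 508.8 ± 8.35 CPM in controls (SD, n = 3 each), and the log2 fold change of -0.15 ± 0.11 did not pass (edgeR adjusted p = 0.776). The effect at 24 h exceeded that at 4 h by 0.63 ± 0.15 (edgeR adjusted p = 0.00290, and 0.0718 without the libraries numbered 13). The 48 h effect minus the 24 h effect was -0.43 and was not called. It passed with DESeq2 (adjusted p = 0.0435), no low-count filter (edgeR adjusted p = 0.00342) and library number as block (edgeR adjusted p = 0.0433). It also passed with the 24 h and 48 h groups alone (edgeR adjusted p = 0.0277). In 13 of 15 fits with libraries left out it stayed uncalled. In control cultures CD59 fell at 24 h against 4 h by 0.45 ± 0.11 (edgeR adjusted p = 0.00539), lost without the libraries numbered 13 (edgeR adjusted p = 0.265). This fall, the 4 h thrombin comparison and the 24 h minus 4 h effect share the control 4 h libraries. CD55 and CD59 were each highest in library 14 in 4 of 6 groups and lowest in library 12 in 4 of 6. For CD59 these were not all the same groups.

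CD46 (chr1:207752038-207795516, plus strand), membrane cofactor protein, varied least of the 8, from 113.6 to 158.2 CPM over all libraries. At 48 h it had 131.1, 145.1 and 148.4 CPM in thrombin libraries and 152.3, 151.9 and 150.5 CPM in control libraries. All thrombin libraries were below the controls, yet the log2 fold change was -0.10 ± 0.09 and did not pass (edgeR adjusted p = 0.831). At 24 h the means were 125.7 ± 10.4 CPM with thrombin and 143.1 ± 13.3 CPM in controls, a log2 difference of -0.19 ± 0.09 (edgeR adjusted p = 0.177; 0.0206 without the libraries numbered 12), and at 4 h 131.7 ± 17.7 and 137.4 ± 9.18 CPM (thrombin and control, SD, n = 3 each). Of the 3 membrane regulators, CD55 and CD59 passed at 4 h, and CD46 at no time.

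**Figure D2:**
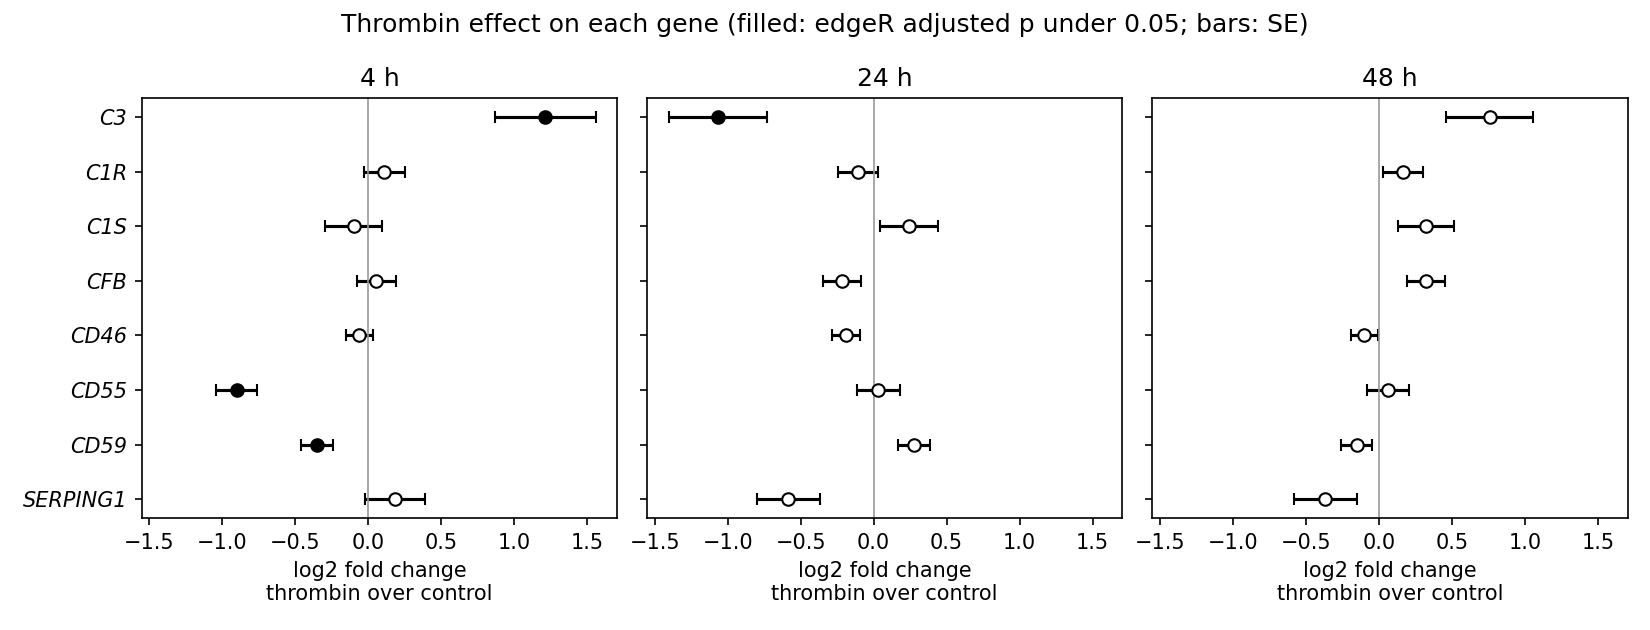
Log2 fold change, thrombin over control (x axis), of each of the 8 genes (rows) at 4, 24 and 48 h (panels), with bars of 1 SE from the edgeR fit and filled points for an adjusted p under 0.05. C3 lies at 1.21, -1.07 and 0.76 in the 3 panels, and CD55 at -0.90 and then near 0.

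Tested as a difference between times, 3 of the 8 genes had a thrombin effect at 24 h that differed from that at 4 h (C3 lower, CD55 and CD59 higher), with 28% of all tested genes called. For 48 h minus 24 h it was 1 of 8 (C3, higher), with 13.8% called, and for 48 h minus 4 h 1 of 8 (CD55, higher), with 0.632% called. In control cultures 3 of 8 differed at 24 h against 4 h (C3 higher, CD55 and CD59 lower; 15.2% of all genes called) and none at 48 h against 24 h (6.12% called; 2 of 8 at an unadjusted p under 0.05). In thrombin cultures none was called at 24 h against 4 h (15.1% called; 2 of 8 unadjusted) and C3 alone at 48 h against 24 h (9.72% called). Thrombin 24 h against control 4 h had CD55 alone, lower (3.34% called). Between thrombin 4 h and control 24 h none of the 8 was called, and 1, CFB, had an unadjusted p under 0.05.

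Of 54 further complement genes, 20 passed the filter on low counts and were tested. The other 34 had at most 12 counts in any library. Of these, 10 had 0 in every library, among them C1QA, C1QB, C4A and C4B, where 3 counts would be 0.129 to 0.208 CPM. The counter is not given, so 0 counts, as for C4A and C4B, cannot tell no transcript from reads left unassigned. C1q and C4 act in the classical pathway with C1R, C1S and C2. At 4 h, 3 of the 20 rose with thrombin (CLU, CSMD2 and C1RL) and 2 fell (ITGB2 and C8G), with 11.8% of all tested genes called. At 24 h, 1 rose (ITGB2) and 5 fell (CLU, CSMD2, C3AR1, C1RL and C2), with 17.6% of all tested genes called. At 48 h none was called by edgeR (6 of 20 at an unadjusted p under 0.05, as were 1110 of 15353 genes, and 1 by DESeq2). The medians were -0.000060, -0.26 and 0.065 on the log2 scale, with all tested genes at -0.00083, 0.0017 and 0.0089.

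CLU, or clusterin, keeps the membrane attack complex off membranes as a fluid-phase inhibitor. At 4 h it had 341.6, 362.7 and 399.5 CPM with thrombin and 300.7, 255.5 and 239.0 CPM in controls. At 24 h it had 269.1, 269.0 and 225.8 CPM with thrombin and 470.1, 473.8 and 405.4 CPM in controls. The groups were apart both times, in opposite directions. CLU rose by 0.47 ± 0.10 at 4 h and fell by 0.82 ± 0.10 at 24 h on the log2 scale (edgeR adjusted p = 0.00269 and 1.61e-06), the 4 h call lost without the libraries numbered 13 or 14 (edgeR adjusted p = 0.159 and 0.0530). CSMD2, a large membrane protein of a family built from CUB and sushi domains, averaged 63.5 ± 4.59 and 46.7 ± 7.96 CPM at 4 h and 44.7 ± 3.00 and 77.7 ± 6.07 CPM at 24 h (thrombin and control). It rose by 0.45 ± 0.11 and fell by 0.80 ± 0.11 (edgeR adjusted p = 0.0111 and 1.49e-05), the 4 h call lost without control library 12 or thrombin library 14 (edgeR adjusted p = 0.0617 and 0.0526).

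C1RL, a C1R-like protease beside C1R on chromosome 12, averaged 14.2 ± 1.25 and 10.3 ± 0.645 CPM at 4 h, and 9.19 ± 1.94 and 14.6 ± 2.43 CPM at 24 h (thrombin and control). It rose by 0.46 ± 0.14 and fell by 0.67 ± 0.14 (edgeR adjusted p = 0.0320 and 0.00168), and the 4 h call held in 1 of 9 fits with libraries left out, while the 24 h call was lost without the libraries numbered 13 (edgeR adjusted p = 0.106). Its neighbour C1R did not pass at either time. C3AR1, the receptor for C3a, had 4 to 10 counts in the thrombin 24 h libraries, with 0.673, 0.272 and 0.508 CPM in thrombin 24 h libraries and 1.54, 1.98 and 1.92 CPM in control 24 h libraries. It fell by 1.89 ± 0.34 at 24 h (edgeR adjusted p = 0.000245). C3 and the C3a receptor were both lower with thrombin at 24 h.

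ITGB2, the beta chain of complement receptors CR3 and CR4, ran the other way. It had 0.699, 0.707 and 1.33 CPM in thrombin 4 h libraries and 1.90, 1.68 and 3.34 CPM in control 4 h libraries, and 1.95, 2.11 and 4.12 CPM in thrombin 24 h libraries against 0.401, 0.462 and 0.661 CPM in control 24 h libraries. It fell by 1.31 ± 0.36 at 4 h and rose by 2.42 ± 0.41 at 24 h on the log2 scale (edgeR adjusted p = 0.0172 and 0.000118); the 4 h call was lost without control library 14 or thrombin library 12 or 13 (edgeR adjusted p = 0.124, 0.0526 and 0.0853). ITGB2 is a leukocyte integrin gene. The macrophage marker list summed to 74.6 to 94.7 CPM in thrombin 4 h and 80.7 to 103.4 CPM in control 4 h libraries. At 24 h it summed to 82.9 to 99.6 CPM in thrombin and 79.3 to 88.8 CPM in control libraries. Over all libraries PTPRC, CSF1R and CD14 had 1.07 to 2.99, 1.31 to 4.41 and 3.79 to 9.72 CPM. CD163 and MARCO were at or near 0 throughout. The part of cells with such markers in the ITGB2 result was not tested. C2, the classical pathway partner of C4, averaged 2.68 ± 0.526 CPM with thrombin and 4.98 ± 0.590 CPM in controls at 24 h and fell by 0.90 ± 0.20 (edgeR adjusted p = 0.00271; 0.0525 without the libraries numbered 13). C8G, a subunit of C8, was at 0.319 ± 0.166 and 0.817 ± 0.430 CPM at 4 h (edgeR adjusted p = 0.0482), a call lost with DESeq2 (adjusted p = 0.0820) and in 7 of 9 fits with libraries left out. C2 and C8G fell outside the naming rule and were named after their values were seen.

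**Figure D3:**
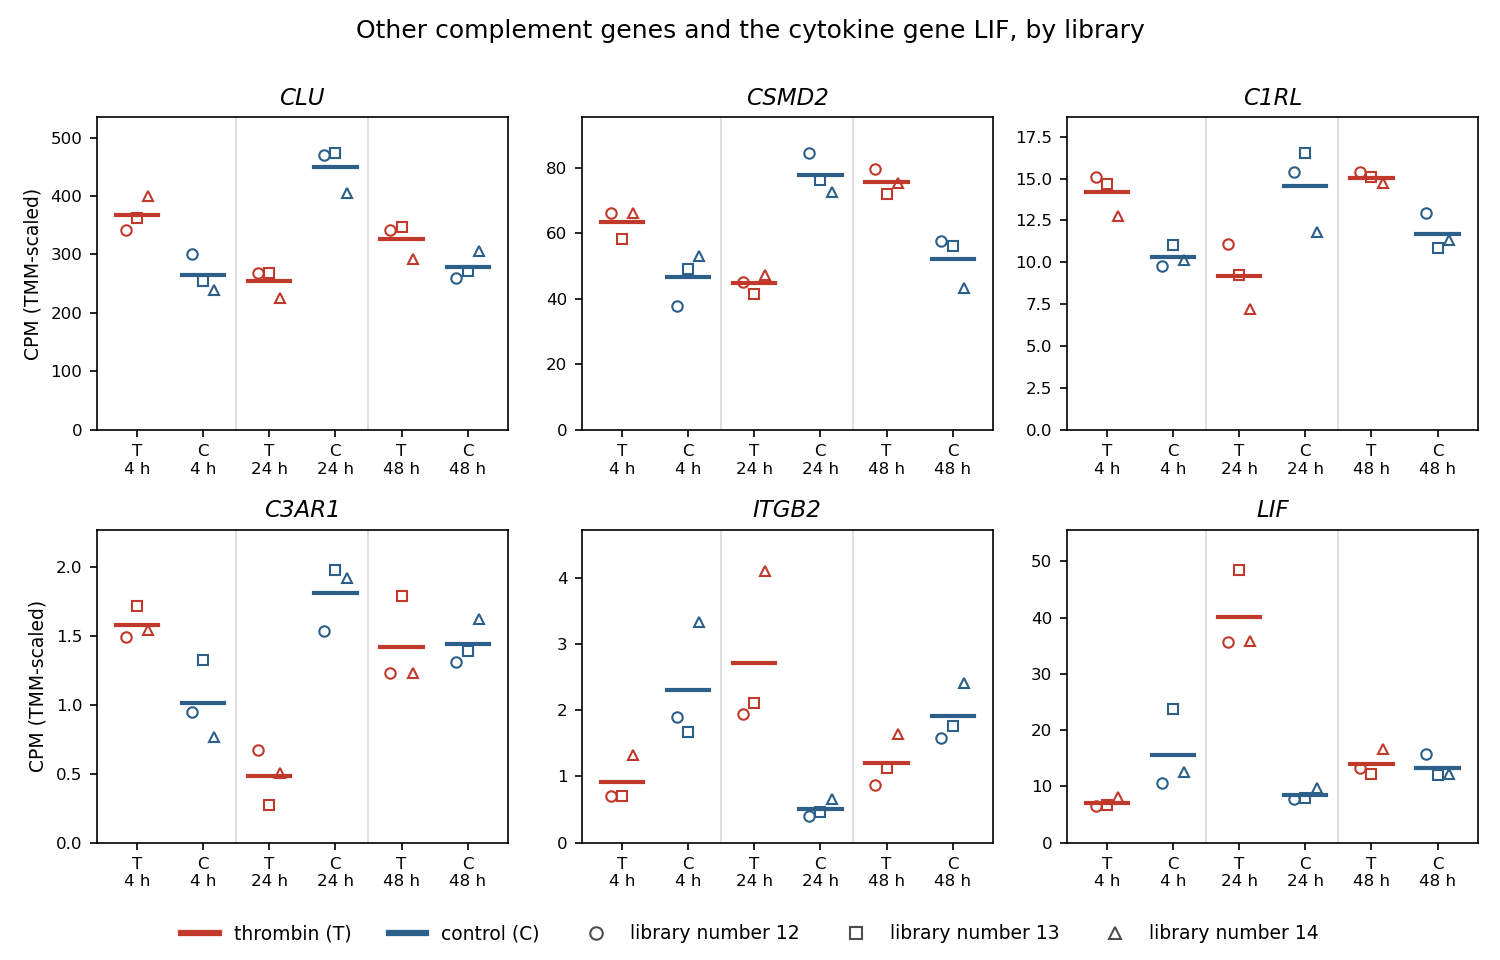
TMM-scaled CPM (y axes, from 0, a scale per gene) of CLU, CSMD2, C1RL, C3AR1, ITGB2 and LIF in each library, with thrombin (T, red) left of control (C, blue) at 4, 24 and 48 h, symbols for library numbers and a bar for the mean of 3. CLU, CSMD2 and C1RL are higher in T at 4 h and lower in T at 24 h, while ITGB2 and LIF are lower and then higher.

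A list of 24 genes was taken from the IL-6, IL-1, NF-kappa-B and interferon pathways, which are known to control complement genes in liver. Of these 24, 3 rose with thrombin at 4 h (STAT2, IFNGR2 and IRF1) and 3 fell (LIF, IL1B and TNFAIP3), with 11.8% of all tested genes called. At 24 h 7 rose, among them LIF, IL1B, NFKB1 and TNFAIP3, and 1 fell (STAT2), with 17.6% of all tested genes called. At 48 h none was called (6 of 24, and 1110 of all 15353 genes, at an unadjusted p under 0.05). The medians were -0.095, 0.12 and 0.092 on the log2 scale. LIF, a cytokine of the IL-6 family, averaged 7.07 ± 0.829 and 15.6 ± 7.12 CPM at 4 h and 40.0 ± 7.31 and 8.43 ± 1.04 CPM at 24 h (thrombin and control, SD, n = 3 each). It fell by 1.17 ± 0.24 at 4 h and rose by 2.24 ± 0.23 at 24 h (edgeR adjusted p = 0.00325 and 1.15e-06).

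IL1B, the interleukin-1 beta gene, averaged 24.5 ± 4.11 and 65.1 ± 24.3 CPM at 4 h and 61.1 ± 19.5 and 16.3 ± 5.03 CPM at 24 h (thrombin and control). It fell by 1.42 ± 0.31 and rose by 1.90 ± 0.33 (edgeR adjusted p = 0.0112 and 0.00130). STAT2, a transducer of interferon signals, averaged 104.7 ± 5.35 and 83.9 ± 8.45 CPM at 4 h and 77.9 ± 3.94 and 113.0 ± 1.51 CPM at 24 h. It rose by 0.32 ± 0.08 and fell by 0.54 ± 0.08 (edgeR adjusted p = 0.00917 and 2.31e-05). IFNGR2, a chain of the interferon-gamma receptor, rose by 0.37 ± 0.10 at 4 h (edgeR adjusted p = 0.0140). NFKB1, an NF-kappa-B subunit gene, and TNFAIP3, a brake on that pathway, rose by 0.58 ± 0.09 and 1.13 ± 0.17 at 24 h (edgeR adjusted p = 4.14e-05 and 6.42e-05). CFB, whose promoter window holds the NF-kappa-B consensus, was not called at 24 h, and a link between CFB and these genes was not tested. The 24 h calls of LIF, STAT2, NFKB1 and TNFAIP3 held with each library left out. The 4 h call of STAT2 held in 4 of 9 such fits, that of IFNGR2 in 4 of 9, that of IL1B in 7 of 9 and that of LIF in 8 of 9.

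The genes most like each of the 8 were found by the root mean square difference of log2 CPM, each gene centred on its own mean, over the 18 libraries. For C3 they were ANKRD34A (0.370) and GRIA4 (0.400), against a spread of C3 about its own mean of 0.661. For CD55 they were ANXA1 (0.154) and SLC20A1 (0.165), against 0.322; ANXA1 averaged 219.4 ± 26.4 CPM in thrombin 4 h libraries and 345.1 ± 30.7 CPM in control 4 h libraries. For CD59 they were CDC42EP3 and FUT8 (0.0872 and 0.0874, against 0.195), and for SERPING1 ACBD7 and GNG7 (0.230 and 0.248, against 0.359). C1R was nearest to CCDC85A and MRC2 (0.110 and 0.116, against 0.185), C1S to STOX1 and ELF2 (both 0.211, against 0.271), CFB to CCDC149 and DZIP1L (0.117 and 0.128, against 0.202), and CD46 to MFSD14A and TIA1 (0.0579 and 0.0611, against 0.133). No complement gene was among them.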

How the data were processed

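Poly(A)-enriched RNA of 18 LX-2 libraries was measured. The deposited values are raw counts per gene symbol; the authors show no normalization in them: all are whole numbers and column totals differ. The tools named, per the submitters' processing notes, are Bowtie2 2.5.4, cutadapt 4.9, DESeq2 and SAMtools 1.21, with build GRCh38 (hg38); the counter, annotation and strand setting are not given in the sources used here, so reads of overlapping or antisense genes may not be told apart.

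The analysis used edgeR 4.0.16 (R 4.3.3): filterByExpr (minimum count 10, minimum total 15) kept 15353 genes, libraries were scaled by TMM, and a robust quasi-likelihood model took in all 18 libraries with 1 coefficient for each of the 6 groups (12 residual degrees of freedom). Contrasts were two-sided, with Benjamini-Hochberg adjustment over all 15353 genes and a threshold of 0.05. Each SE was derived from the F statistic. Levels are CPM on TMM-scaled library sizes. The fit was tested on simulated data and made more false calls there than its threshold states, so calls just under 0.05 are the least firm.

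The 8 genes and the lists of 54 and 24 other genes were chosen with earlier results of these data known. From each list, up to 4 genes with the smallest adjusted p among those called at each time were named, plus the 2 genes nearest to each of the 8 on log2 CPM (prior count 2). Alternatives were DESeq2 1.42.0, RLE size factors, no filter, a stricter filter (1 CPM in 6 libraries), the groups compared alone, the replicate number as a block, and libraries left out singly or by number; with a library left out, the remaining libraries are assumed to vary like those of the other groups. Coordinates and promoters are from RefSeq GRCh38.p14, lengths and overlaps from GENCODE v29.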

Additional observations from a re-analysis of the deposited data

Results flagged for a closer look

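These results were picked out because the thrombin effect itself, on the log2 scale, differed between times by an interaction test (edgeR adjusted p under 0.05). For C3 the effect at 24 h minus that at 4 h was -2.28, and that at 48 h minus that at 24 h was 1.82. For CD55 the effect at 24 h minus that at 4 h was 0.94 and that at 48 h minus that at 4 h was 0.97. For CD59 the effect at 24 h minus that at 4 h was 0.63. Differences taken against 4 h rest on both groups of that time as labelled, and those that involve 24 h on the control 24 h group; none of the 8 genes was called between thrombin 4 h and control 24 h. With 3 libraries a group, single libraries were not tested as outliers.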

How the results depend on the processing

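Of 62 gene fold changes and differences, the settings that kept all libraries gave 350 values with the same direction and side of the threshold, 4 no longer past it, 16 newly past it and 0 of opposite sign. The fits with libraries left out gave 494, 75, 24 and 13 values in the same order. Members called at 24 h (1) became 3 with no low-count filter, 2 with the replicate block (SERPING1 added, edgeR adjusted p = 0.0301), 2 with DESeq2 and 2 with the groups compared alone. For the 48 h minus 24 h effect (1) they became 3 with no filter, 2 with the replicate block, 3 with DESeq2 and 3 with those groups alone, and for thrombin 24 h against thrombin 4 h (0) 1 with no filter. Other complement genes called at 48 h (0) became 1 with no filter and 1 with DESeq2. The 24 upstream genes became 3 (from 6) at 4 h with those groups alone, and 2 (from 0) at 48 h with no filter. The cause was not tested. With libraries left out, which also leaves fewer samples, members called ranged from 1 to 3 at 4 h, 0 to 3 at 24 h, 0 to 3 for 48 h minus 24 h, 0 to 1 for 48 h minus 4 h, 0 to 4 for control 24 h against 4 h, 0 to 1 for control 48 h against 24 h, 0 to 1 for thrombin 24 h against 4 h, 0 to 2 for thrombin 48 h against 24 h and 0 to 1 for thrombin 24 h against control 4 h. Other complement genes ranged from 0 to 3 at 4 h and 0 to 1 at 48 h, and upstream genes from 0 to 9 at 4 h and 4 to 9 at 24 h. Fold changes that crossed 0, none of them called, ranged from -0.030 to 0.23 (C1R), -0.10 to 0.14 (CFB) and -0.16 to 0.034 (CD46) at 4 h, -0.21 to 0.051 (C1R), -0.088 to 0.43 (C1S) and -0.059 to 0.20 (CD55) at 24 h, and -0.052 to 0.21 (CD55) at 48 h. Deviations from the group means of same-numbered thrombin and control libraries of 1 time correlated, over genes, at -0.0931 to 0.0574, and over all 45 same-numbered pairs of libraries at -0.167 to 0.275, with 11 over 0.1, so the replicate block is an alternative only. With it the SERPING1 effect at 24 h minus that at 4 h passed (edgeR adjusted p = 0.0269) and C8G at 4 h did not (edgeR adjusted p = 0.0589). Apart from the counts at 24 h and for 48 h minus 24 h given above, the block changed no count of members by over 1.5 times. C3, with 16 to 95 counts a library, is the member whose precision depth limits most.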
